A study of Mus musculus with 17 samples.

Results

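Direct p53 target genes are genes at which the transcription factor p53 is known to bind and to raise transcription. A list of 36 genes under this name was followed here, leaving out Cdkn1a and Gadd45a, which are given beside it for comparison. Whether p53 binds and raises each of the 36 was not examined, and the evidence may differ between them. Members were found by gene symbol in the probe annotation of an Illumina bead array, and each was represented by its brightest probe over all arrays. A probe was listed for 34 of the 36 members, of 16593 named genes in all, and Ckap2 and Fdxr had none. These members had 67 probes, and 19 members had several, which served as a check.

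The muscle was the tibialis anterior, a fast muscle of the shin, of male mice aged 8 weeks, harvested on day 3 and measured on 17 arrays. One experiment compared immobile hindlimbs of p53 mKO mice (3 arrays), immobile hindlimbs of littermate control mice (3 arrays) and mobile hindlimbs of littermate control mice (3 arrays). The other compared muscles of C57BL/6 mice transfected with a p53 plasmid (4 arrays) or a control plasmid (4 arrays). The labels do not spell out p53 mKO, name no promoter or Cre for it, give no strain for the immobilization samples, describe neither plasmid further and do not say which limbs came from 1 mouse, so that p-values measure the spread between arrays, which may in part be technical. No mobile p53 mKO group was analysed here. No probe was listed for Trp53, the gene of p53, and the level of p53 itself was thus not examined in mKO or plasmid muscles.

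p53 is kept low in resting cells because Mdm2, itself a p53 target, marks it for destruction. When DNA damage or another stress stabilizes p53, it raises genes that halt the cell cycle, repair DNA, restrain growth signalling through mTORC1, drive autophagy or start apoptosis, and genes that feed back on p53. Muscle fibres do not divide, and in atrophy models p53 and several of its targets have been studied as part of the wasting programme.

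Values are normalized log2 intensities. They lay between 8.21 and 15.61, with array medians of 8.48 to 8.5, so that probes near the lower end sit close to a floor and their differences are compressed. Perp, a desmosome protein, and Btg2, an antiproliferative factor, were above the 40th percentile of their array on 0 of the 17 arrays and were not tested in any comparison. Mdm4 passed that level on 5 arrays, Sesn3 on 4, Pmaip1 and Aen on 10 each, Gtse1 on 12 and Sesn2 on 13. All 11 measured skeletal muscle fibre markers passed it. In each experiment an array stood apart in markers. Among the immobile control arrays, replicate 1 had the highest mean of macrophage markers, at 11.12, against 10.33 and 9.97 on the other arrays of its group. Among the p53 plasmid arrays, replicate 2 had the lowest mean of muscle fibre markers, at 14.65, against 14.82, 14.83 and 14.79 on the others. The number of arrays limits the precision of each value.

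The first question was what a p53 plasmid does to these genes in muscle. Of the 29 members tested, 12 rose and 11 fell in p53 plasmid muscles relative to control plasmid muscles (limma, adjusted p under 0.05). This has to be read against a broad response, in which 30.2% of the 10398 genes tested rose and 28.6% fell. The members' median log2 difference was -0.04, against 0 for all genes tested. The members split in both directions, with the kinases Plk2 and Plk3 and the apoptosome gene Apaf1 among the higher ones and Ddit4l, Tob1 and Phlda3 among the lower ones. Without p53 plasmid replicate 2, 10 members rose and 10 fell. Muscle RNA was measured in bulk, so fewer cells of a type and less RNA per cell cannot be told apart.

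**Figure D1:**
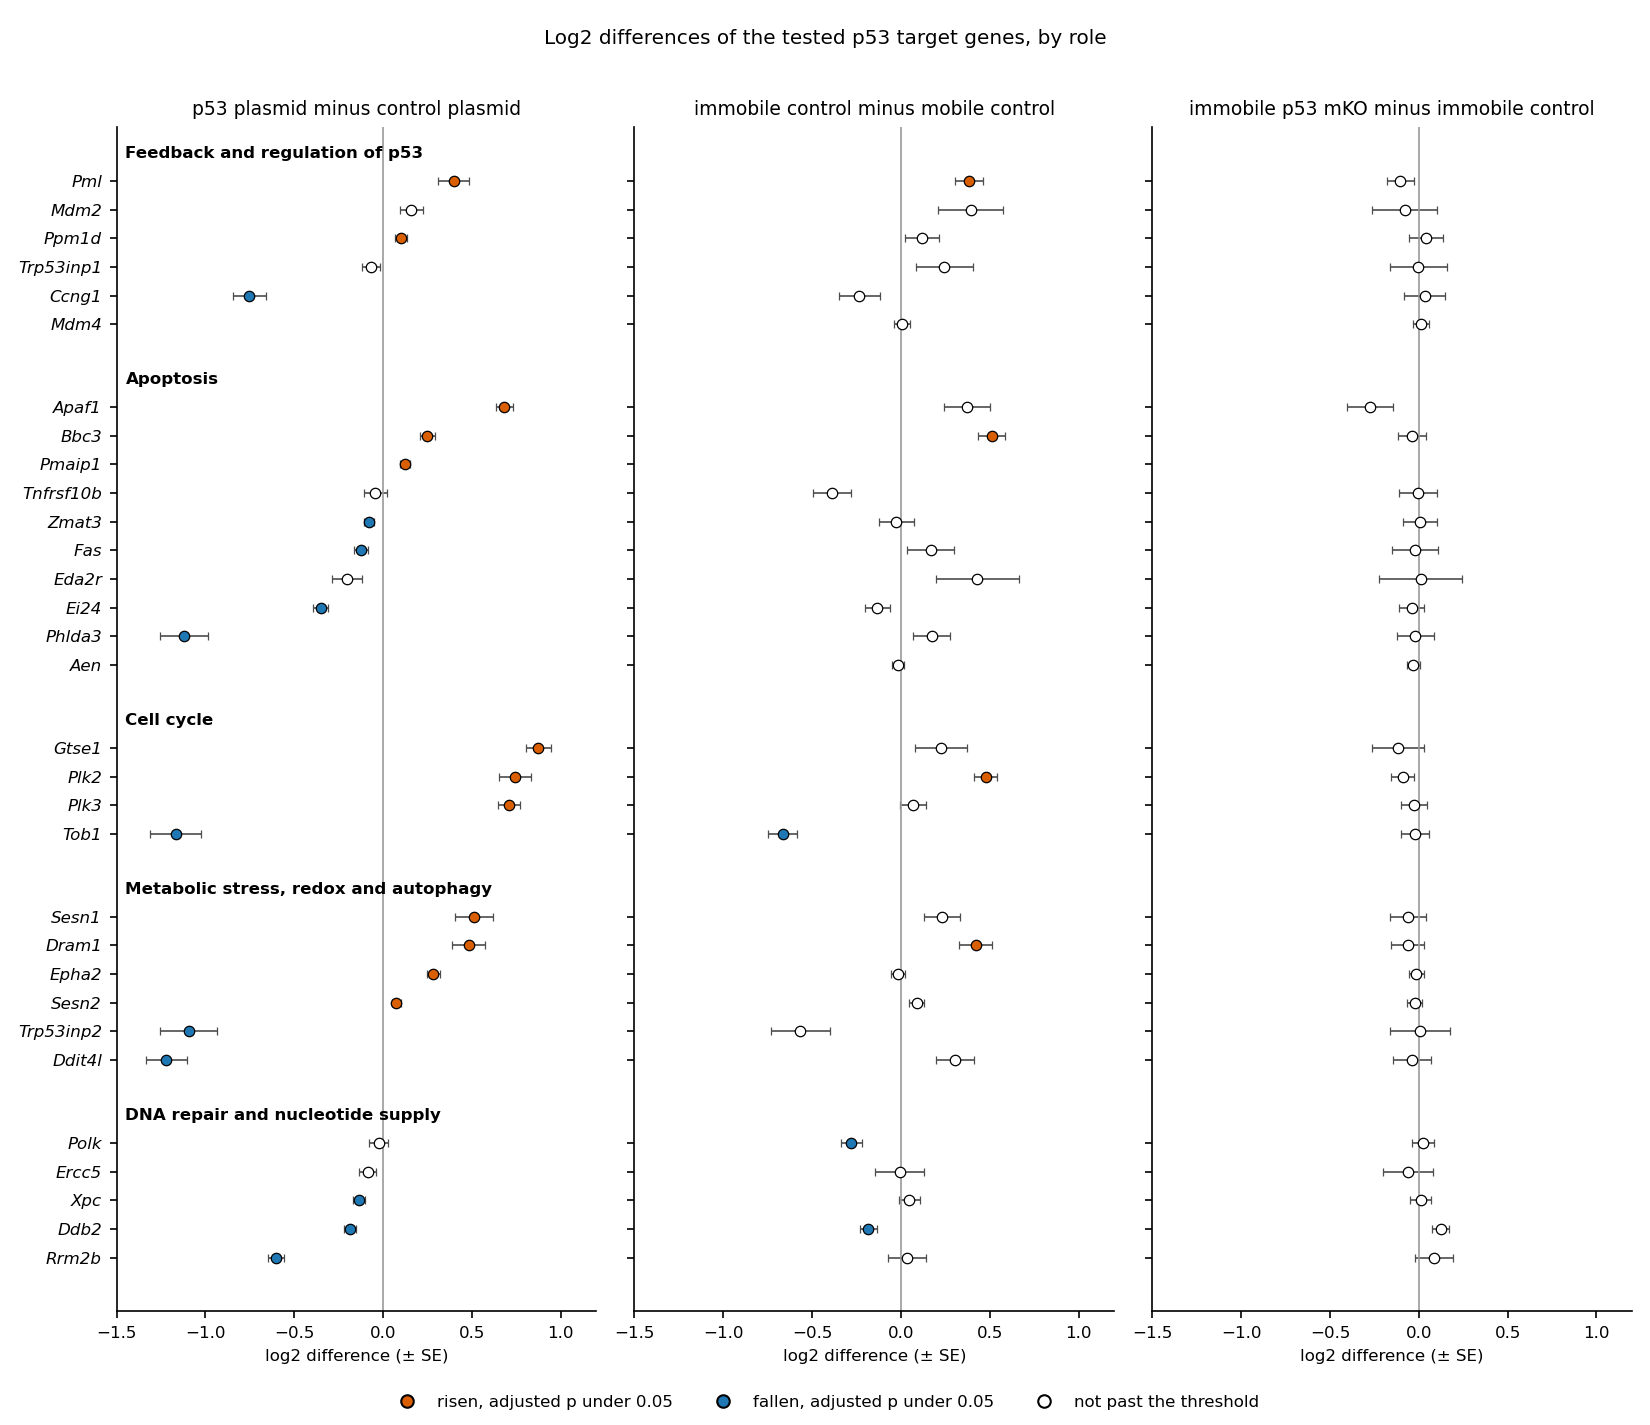
Log2 differences (horizontal axis, with SE) of every tested p53 target gene, grouped by role (vertical axis), for p53 plasmid minus control plasmid, immobile control minus mobile control, and immobile p53 mKO minus immobile control. Filled points passed an adjusted p of 0.05: 12 rose and 11 fell with the plasmid, 4 rose and 3 fell with immobilization, and 0 passed for p53 mKO.

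Among the 5 tested genes that feed back on p53, 2 rose and 1 fell with the plasmid, where 30.2% of all genes rose and 28.6% fell. Pml, the scaffold of PML nuclear bodies, read 11.04, 10.98, 10.94 and 10.66 in p53 plasmid muscles, against 10.44, 10.59, 10.59 and 10.41 in control plasmid muscles. Every p53 plasmid array was above every control plasmid array, and Pml rose by 0.40 ± 0.09 (SE; limma adjusted p = 0.00395). Ppm1d, a phosphatase that dampens the DNA damage response, read 9.47, 9.53, 9.47 and 9.59 in p53 plasmid muscles, against 9.45, 9.43, 9.38 and 9.39 in control plasmid muscles. Its groups did not overlap, but the rise of 0.10 ± 0.03 (SE; limma adjusted p = 0.0308) was small. Ppm1d was no longer called without control plasmid 3, control plasmid 4, p53 plasmid 2 or p53 plasmid 4 (limma adjusted p 0.0666 to 0.0782), and its other probe differed by -0.03.

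Mdm2, the ubiquitin ligase that destroys p53, was not called. It read 11.58, 11.42, 11.35 and 11.31 in p53 plasmid muscles, against 11.24, 11.20, 11.20 and 11.38 in control plasmid muscles. The groups overlapped through control plasmid replicate 4, and the difference was 0.16 (95% interval 0.01 to 0.31; limma adjusted p = 0.0671). Mdm2 passed the threshold without control plasmid 4, at 0.20 (limma adjusted p = 0.0293), and without p53 plasmid 4, at 0.20 (limma adjusted p = 0.0421), as well as with array weights, at 0.18 (limma adjusted p = 0.0422), and with the mean of its probes, at 0.15 (limma adjusted p = 0.00758). Of its 2 probes tested here, 1 rose, by 0.26. Mdm4, the partner of Mdm2 that blocks p53's activity, was too dim to be tested with the plasmid. It read 8.39, 8.37, 8.30 and 8.37 in p53 plasmid muscles and 8.36, 8.46, 8.38 and 8.40 in control plasmid muscles, all near the floor. Trp53inp1, a nuclear cofactor that favours p53's apoptotic targets, was not called, at -0.07 (limma adjusted p = 0.276), although its other probe rose by 0.14.

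Ccng1, cyclin G1, a partner of a phosphatase that acts on Mdm2, fell with the plasmid. It read 13.06, 12.66, 13.08 and 13.01 in p53 plasmid muscles, against 13.80, 13.60, 13.74 and 13.68 in control plasmid muscles. All p53 plasmid arrays were below all control plasmid arrays, replicate 2 by the widest margin. Ccng1 fell by 0.75 on the log2 scale, with an SE of 0.09 (1.68-fold lower; limma adjusted p = 0.000218), and by 0.66 without p53 plasmid 2. All 3 of its probes fell, by 0.75 to 0.97.

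Apoptosis genes were divided, with 3 of 9 tested members risen and 4 fallen, where 30.2% of all genes rose and 28.6% fell. Apaf1, the scaffold of the apoptosome, read 10.43, 10.51, 10.44 and 10.52 in p53 plasmid muscles, against 9.84, 9.73, 9.90 and 9.70 in control plasmid muscles. The p53 plasmid arrays lay in a narrow band well above the control plasmid arrays, a rise of 0.68 ± 0.05 (SE; 1.6-fold; limma adjusted p = 2.0e-05), and both Apaf1 probes rose. Bbc3, which encodes the BH3-only protein PUMA, read 9.19, 9.28, 9.15 and 9.15 in p53 plasmid muscles, against 8.90, 8.94, 8.90 and 9.03 in control plasmid muscles. The groups did not overlap, and Bbc3 rose by 0.25 ± 0.04 (SE; limma adjusted p = 0.00101), although 1 of its 3 probes did so. Pmaip1, which encodes the BH3-only protein NOXA, rose by 0.12 ± 0.03 (SE; limma adjusted p = 0.00411) close to the floor.

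Phlda3, whose product competes with the kinase Akt for membrane lipids, was among the members with the largest falls. It read 12.21, 11.55, 12 and 12.05 in p53 plasmid muscles, against 13.14, 13.15, 12.90 and 13.10 in control plasmid muscles. The groups were far apart, with p53 plasmid replicate 2 lowest, and the gene was 2.17-fold lower (log2 difference -1.12 ± 0.13, SE; limma adjusted p = 0.000167). Without p53 plasmid 2 the difference was -0.99, and both probes fell.

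Ei24, a membrane protein of the endoplasmic reticulum with a part in autophagy, also fell. It read 11.06, 10.96, 11.11 and 11.07 in p53 plasmid muscles, against 11.35, 11.41, 11.36 and 11.48 in control plasmid muscles. All p53 plasmid arrays were lower, by 0.35 on average (log2 difference -0.35 ± 0.04, SE; limma adjusted p = 0.000174). The death receptor Fas and the RNA-binding protein Zmat3 had smaller falls, of -0.12 and -0.08, with overlapping groups. The other tested Fas probe also fell, at -0.12, and its groups did not overlap. Fas lost its call without control plasmid 1, 2 or 3 or p53 plasmid 2 or 4 (limma adjusted p 0.0552 to 0.0764), and Zmat3 lost it without any 1 array other than p53 plasmid 2 (limma adjusted p 0.0601 to 0.102). Tnfrsf10b, a death receptor, and Eda2r, a receptor of the same family, were not called, at -0.04 and -0.20. Eda2r passed the threshold without control plasmid 3 or without control plasmid 4, with a lowest limma adjusted p of 0.0351. Aen, an exonuclease, was too dim to be tested with the plasmid, and read 8.39 to 8.46 in p53 plasmid muscles and 8.35 to 8.45 in control plasmid muscles.

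All 4 cell cycle members tested changed with the plasmid, 3 upward and 1 downward, where 30.2% of all genes rose and 28.6% fell. Gtse1, a microtubule-bound protein of the G2 phase that moves p53 out of the nucleus, had the largest rise of any member. It read 9.41, 9.71, 9.40 and 9.52 in p53 plasmid muscles, against 8.62, 8.68, 8.67 and 8.57 in control plasmid muscles. The groups did not overlap, and Gtse1 was 1.83-fold higher (log2 difference 0.88 ± 0.07, SE; limma adjusted p = 2.6e-05). Both of its tested probes rose, the other by 0.35.

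The polo-like kinases Plk2 and Plk3, stress-induced relatives of a mitotic kinase, rose together. Plk2 read 10.59, 10.42, 10.49 and 10.26 in p53 plasmid muscles, against 9.57, 9.88, 9.58 and 9.75 in control plasmid muscles. Plk3 read 9.51, 9.67, 9.38 and 9.40 in p53 plasmid muscles, against 8.74, 8.82, 8.77 and 8.80 in control plasmid muscles. Neither pair of groups overlapped, with differences of 0.75 ± 0.09 (SE; limma adjusted p = 0.000174) for Plk2 and 0.71 ± 0.06 (SE; limma adjusted p = 4.1e-05) for Plk3.

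Tob1, an antiproliferative protein that recruits mRNA deadenylases, was the cell cycle member that fell. It read 10.50, 9.95, 10.65 and 10.51 in p53 plasmid muscles, against 11.66, 11.42, 11.53 and 11.67 in control plasmid muscles. Each p53 plasmid array was below each control plasmid array, and Tob1 was 2.25-fold lower (log2 difference -1.17 ± 0.14, SE; limma adjusted p = 0.000199). Without p53 plasmid 2 the difference was -1.02.

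**Figure D2:**
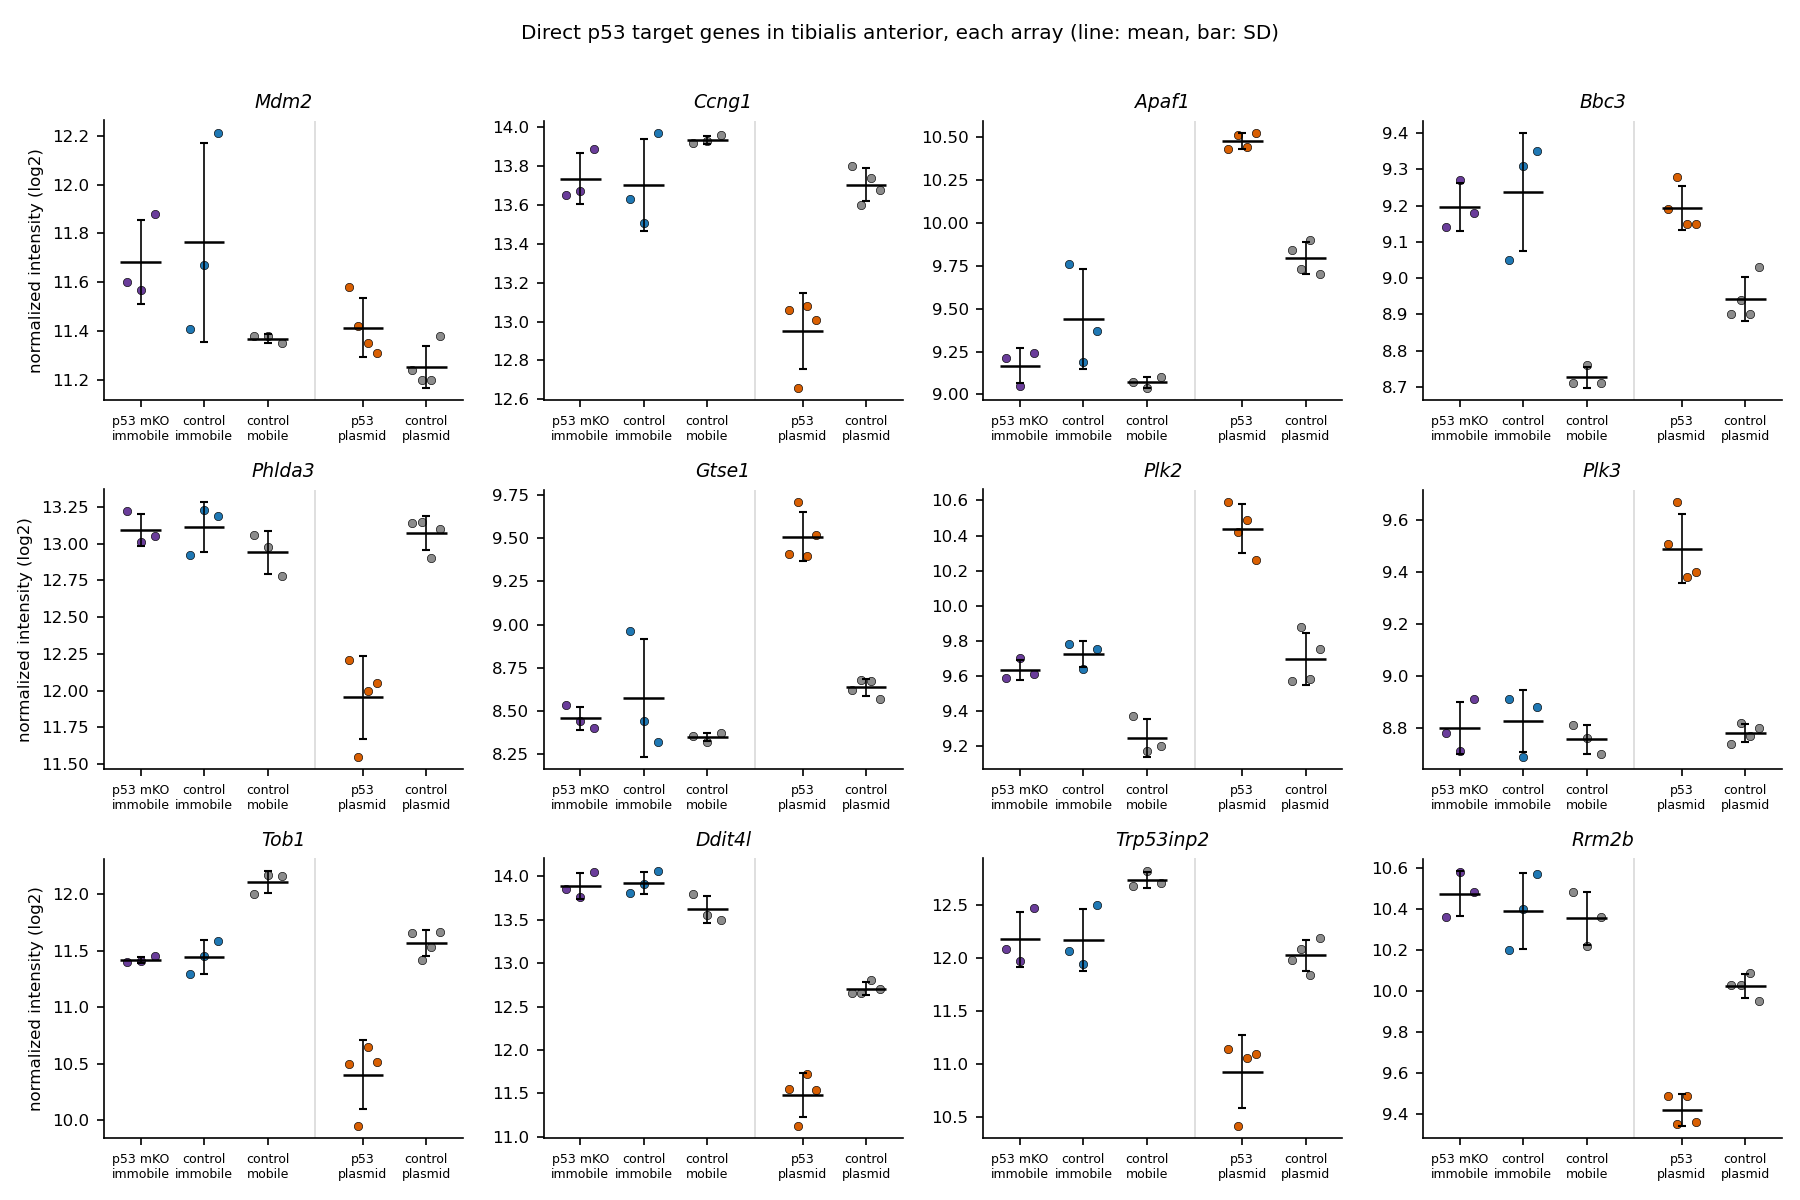
Normalized log2 intensity (vertical axis) of 12 members on each array, for the 5 groups (horizontal axis); points are arrays, lines are group means and bars are SD. Gtse1, Plk2, Plk3 and Apaf1 stand highest in p53 plasmid muscles. Ccng1, Ddit4l, Phlda3, Rrm2b, Tob1 and Trp53inp2 are lower in p53 plasmid muscles than in every other group.

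The 6 tested members grouped here under metabolic stress, redox control and autophagy, Epha2 included, were all called, 4 upward and 2 downward. Of all genes tested, 30.2% rose and 28.6% fell. The sestrins Sesn1 and Sesn2, which restrain mTORC1, differed by 0.51 ± 0.11 (SE; limma adjusted p = 0.00328) and 0.07 ± 0.03 (SE; limma adjusted p = 0.0408). Sesn2 kept its call in 1 of the 8 fits that left out an array, the one without control plasmid 4, and had limma adjusted p of 0.0627 to 0.098 in the others. Sesn3, the third sestrin, was too dim to be tested and read 8.41 to 8.42 in p53 plasmid muscles and 8.35 to 8.44 in control plasmid muscles. Dram1, a lysosomal membrane protein of autophagy, rose by 0.48 ± 0.09 (SE; limma adjusted p = 0.00213). Epha2, a receptor tyrosine kinase, read 8.69, 8.87, 8.80 and 8.78 in p53 plasmid muscles, against 8.50, 8.52, 8.48 and 8.51 in control plasmid muscles. Its groups did not overlap, a rise of 0.28 ± 0.04 (SE; limma adjusted p = 0.000312).

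Ddit4l, known as REDD2 and like its relative REDD1 an inhibitor of mTORC1, had the largest fall of any member. It read 11.55, 11.13, 11.73 and 11.54 in p53 plasmid muscles, against 12.66, 12.66, 12.81 and 12.70 in control plasmid muscles. Even the highest p53 plasmid array was well below the lowest control plasmid array, and Ddit4l was 2.33-fold lower (log2 difference -1.22 ± 0.12, SE; limma adjusted p = 5.5e-05). Trp53inp2, a nuclear cofactor that moves to autophagosomes, read 11.14, 10.42, 11.06 and 11.10 in p53 plasmid muscles, against 11.98, 12.09, 11.84 and 12.19 in control plasmid muscles. Its groups did not overlap and it was 2.14-fold lower (limma adjusted p = 0.00052). Without p53 plasmid 2, which was lowest for both genes, the differences were -1.10 for Ddit4l and -0.93 for Trp53inp2.

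None of the 5 DNA repair members rose with the plasmid, and 3 fell, where 30.2% of all genes rose and 28.6% fell. Rrm2b, a subunit of the ribonucleotide reductase that supplies nucleotides for repair, read 9.49, 9.35, 9.49 and 9.36 in p53 plasmid muscles, against 10.03, 10.03, 10.09 and 9.95 in control plasmid muscles. The groups were well apart, with a log2 difference of -0.60 ± 0.05 (SE; limma adjusted p = 2.5e-05). Ddb2, a sensor of ultraviolet damage, read 8.69, 8.66, 8.72 and 8.72 in p53 plasmid muscles, against 8.87, 8.97, 8.86 and 8.83 in control plasmid muscles. It was lower on every p53 plasmid array, by -0.18 ± 0.03 (SE; limma adjusted p = 0.00186), though 1 of its 3 tested probes fell. Xpc, another damage sensor, fell by 0.14 on the log2 scale (limma adjusted p = 0.0103), while the polymerase Polk and the endonuclease Ercc5 were not called, at -0.03 and -0.09. The other Ercc5 probe fell, at -0.15.

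The direction of the plasmid difference went with the brightness of the probe, a grouping chosen after the values were seen. Among the 7 members whose probe averaged 11 or more in control plasmid muscles, 0 rose and 6 fell, namely Ccng1, Ddit4l, Ei24, Phlda3, Tob1 and Trp53inp2, with Mdm2 not called. Of all 1925 genes tested at that brightness, 29.9% rose and 49.7% fell. Among the 9 members below 9, 6 rose and 1 fell, against 24.8% risen and 12.3% fallen of 4584 genes. Probes below 9 lie close to the floor, which leaves less room for a fall than for a rise, in members and other genes alike. The control plasmid mean that sets the classes is also 1 side of each difference. Brightness depends on the probe and is not a level that can be compared between genes. Subtracting each array's lowest value changed the size for dim probes, so that Gtse1 differed by 1.69, Plk3 by 1.29 and Epha2 by 0.74, all still called.

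**Figure D3:**
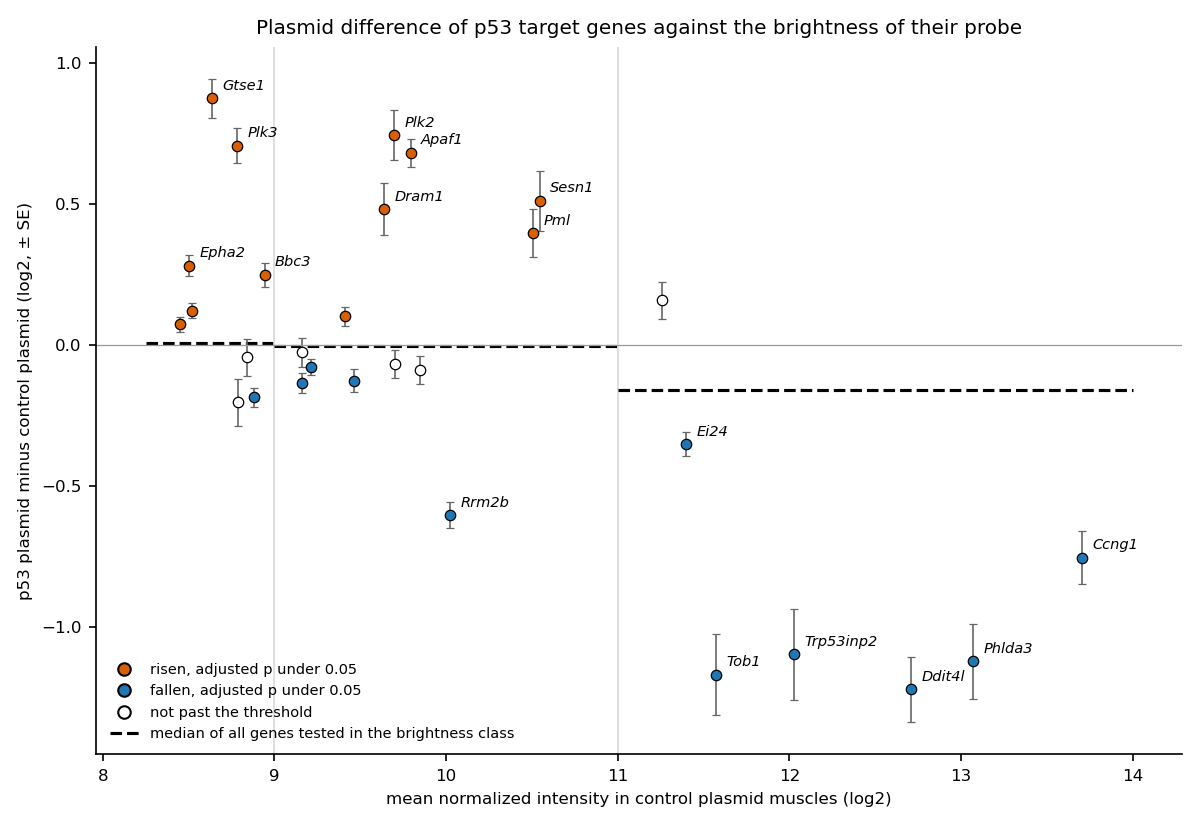
Log2 difference between p53 plasmid and control plasmid muscles (vertical axis, with SE) of the 29 tested members, against the mean log2 intensity of their probe in control plasmid muscles (horizontal axis). Dashed lines give the median of all genes tested in 3 brightness classes, and 6 of the 7 members at 11 or more lie below 0 and were called.

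Cell type markers also moved with the plasmid. Of 12 macrophage markers, 11 rose and 0 fell, and the mean of the list was 11.91 to 12.02 in p53 plasmid muscles, against 10.83 to 11.13 in control plasmid muscles. All 7 tested markers of proliferating cells rose, with list means of 9.36 to 9.63 in p53 plasmid muscles, against 8.72 to 8.85 in control plasmid muscles. Muscle fibre markers were lower, with 5 of 11 fallen and list means of 14.65 to 14.83 in p53 plasmid muscles, against 14.95 to 15.00 in control plasmid muscles. Of 5 endothelial markers, 4 fell. The part of these shifts in the differences of the p53 targets was not tested.

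**Figure D4:**
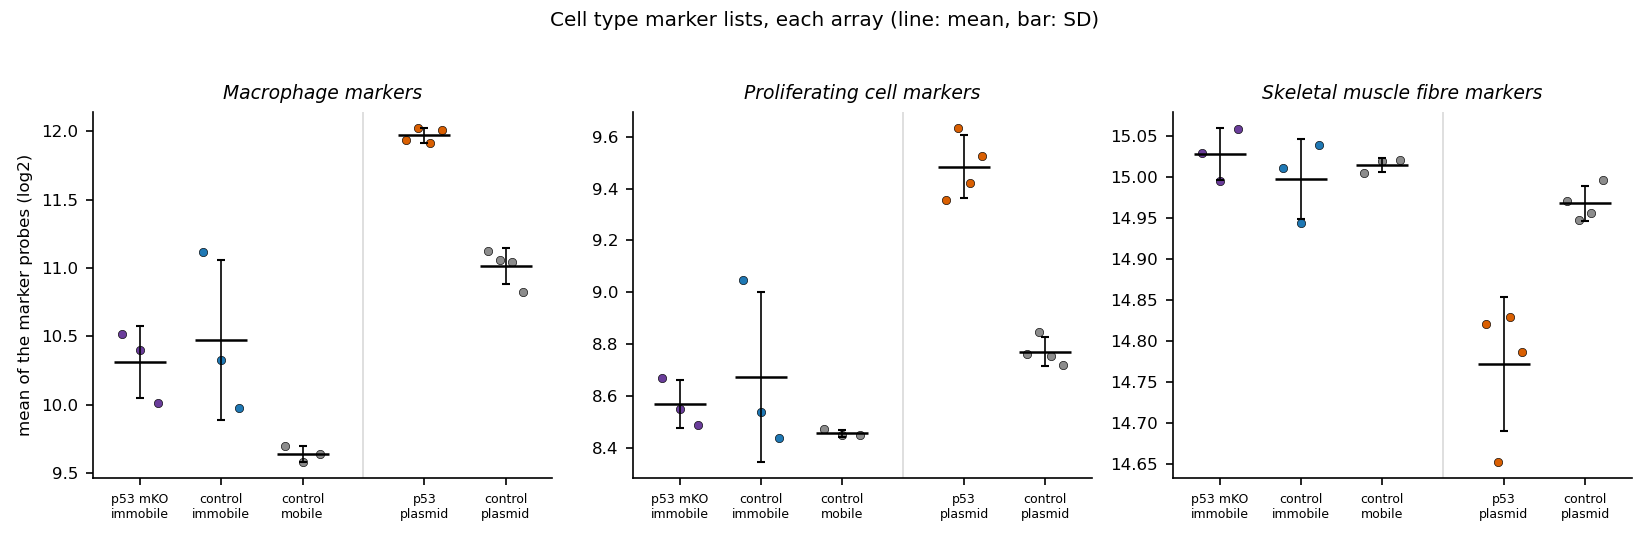
Mean log2 intensity (vertical axis) of the macrophage, proliferating cell and skeletal muscle fibre marker lists on each array, for the 5 groups (horizontal axis); points are arrays, lines are group means and bars are SD. Macrophage and proliferation markers are highest in p53 plasmid muscles, where muscle fibre markers are lowest.

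Promoters were examined because a p53 response element near the start site is the textbook mark of a direct target. The element consists of 2 copies of a half-site of 10 bases, with up to 13 bases between them, and the half-site's consensus is its own reverse complement, so that 1 search covered both strands. RefSeq windows (GRCm38.p6) reaching from 250 bases before the start to 50 after it were held for 28 of the 36 members. A perfect half-site was in 11 of these windows (39.3%), against 9.55% of the windows of 27025 genes. Paired half-sites with at most 2 mismatches and the central C and G of each copy intact were in 5 windows (17.9%), against 4.71% of all genes, the 5 being Ccng1, Ckap2, Gtse1, Pml and Sesn1. The pair was in 3 of 11 windows of members that rose with the plasmid, and in 1 of 7 of members that fell. A match is a description of the letters and not evidence of binding, and the windows leave out introns, where several known elements lie.

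The windows of the 4 called genes with a pair are shown because they set risen members beside a fallen one, with both half-sites in capitals. Gtse1 (chr15:85859696-85859995, plus strand) has adjoining half-sites with 1 mismatch, from 1 base before to 19 bases after the start. Pml (chr9:58249737-58250036, minus strand) has 1 mismatch and 7 bases between its half-sites, 161 to 135 bases before the start. Sesn1 (chr10:41887189-41887488, plus strand) has 2 mismatches and 3 bases between its half-sites, 186 to 164 bases before the start. Ccng1 (chr11:40755237-40755536, minus strand), which fell with the plasmid, has adjoining half-sites with 1 mismatch, 195 to 176 bases before the start.
Gtse1: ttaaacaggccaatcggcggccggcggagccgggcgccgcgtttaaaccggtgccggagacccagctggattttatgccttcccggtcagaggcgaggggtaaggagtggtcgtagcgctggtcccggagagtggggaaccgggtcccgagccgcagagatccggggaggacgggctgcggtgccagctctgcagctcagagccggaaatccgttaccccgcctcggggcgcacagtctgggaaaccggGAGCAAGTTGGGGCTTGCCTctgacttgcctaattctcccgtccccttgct
Pml: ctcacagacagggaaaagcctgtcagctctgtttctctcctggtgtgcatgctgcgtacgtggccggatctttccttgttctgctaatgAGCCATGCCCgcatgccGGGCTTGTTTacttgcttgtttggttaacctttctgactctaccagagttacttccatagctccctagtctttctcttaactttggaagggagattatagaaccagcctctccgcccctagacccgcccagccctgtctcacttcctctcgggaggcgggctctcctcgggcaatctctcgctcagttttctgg
Sesn1: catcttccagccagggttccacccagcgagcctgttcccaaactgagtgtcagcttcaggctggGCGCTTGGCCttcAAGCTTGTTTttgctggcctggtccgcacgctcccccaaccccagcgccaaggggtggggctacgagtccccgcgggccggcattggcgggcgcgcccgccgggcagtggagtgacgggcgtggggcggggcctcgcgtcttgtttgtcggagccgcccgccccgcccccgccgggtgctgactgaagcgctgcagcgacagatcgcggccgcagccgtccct
Ccng1: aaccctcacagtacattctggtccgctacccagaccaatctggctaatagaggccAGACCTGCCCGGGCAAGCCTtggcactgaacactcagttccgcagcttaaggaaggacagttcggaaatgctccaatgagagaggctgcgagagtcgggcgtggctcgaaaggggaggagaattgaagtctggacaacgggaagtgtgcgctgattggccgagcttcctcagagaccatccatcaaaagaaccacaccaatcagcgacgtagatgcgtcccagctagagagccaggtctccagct

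The second question was how the targets respond to immobilization itself. In immobile control limbs, 4 of the 30 tested members rose relative to mobile control limbs, where 5.1% of 10842 genes rose, and 3 fell, where 6.36% of genes fell. The risen members were Plk2, Bbc3, Pml and Dram1, and the fallen ones were Tob1, Polk and Ddb2. The median log2 difference of the members was 0.08, against 0.00 for all genes. The largest fold of a called member was 1.59, for Tob1. With single arrays left out, the counts moved to 2 risen without mobile control 1, 2 or 3, to 1 fallen without mobile control 1, mobile control 3 or immobile control 1, and to 5 fallen without p53 mKO 3, an array that enters the shared estimate of the spread.

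Tob1 had the smallest adjusted p of the members. It read 11.29, 11.45 and 11.59 in immobile control limbs, against 12, 12.17 and 12.16 in mobile control limbs. The groups did not overlap, and the log2 difference was -0.67 ± 0.08 (SE; limma adjusted p = 0.00201). Plk2 read 9.78, 9.64 and 9.75 in immobile control limbs, against 9.37, 9.17 and 9.20 in mobile control limbs, all higher with immobilization (0.48 ± 0.07, SE; limma adjusted p = 0.00346). Bbc3 read 9.05, 9.31 and 9.35 in immobile control limbs, against 8.71, 8.76 and 8.71 in mobile control limbs, also without overlap (0.51 ± 0.08, SE; limma adjusted p = 0.00593). Of the 3 Bbc3 probes, which differed by 0 to 0.51, 1 rose, and the mean of the probes differed by 0.19 (limma adjusted p = 0.0172). These 3 calls held in each of the 9 fits that left out 1 array.

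The other 4 calls did not hold in every such fit. Pml, at 0.38 ± 0.08 (SE; limma adjusted p = 0.0173), missed the threshold without mobile control 1, 2 or 3 (limma adjusted p 0.0534, 0.0685 and 0.0606) and with the mean of its probes (0.12, limma adjusted p = 0.0559). Polk, a polymerase that copies past DNA lesions, was at -0.28 ± 0.06 (SE; limma adjusted p = 0.0209), and missed it without mobile control 1 (0.0643), mobile control 3 (0.071) or immobile control 1 (0.0504). Dram1, at 0.42 ± 0.09 (SE; limma adjusted p = 0.0253), missed it without any 1 mobile control array or immobile control 1 or 2 (limma adjusted p 0.0586 to 0.0831). Ddb2 read 8.84, 8.97 and 8.94 in immobile control limbs, against 9.12, 9.05 and 9.13 in mobile control limbs. Its log2 difference of -0.18 ± 0.05 (SE; limma adjusted p = 0.0441) was past the threshold in 1 of the 9 fits that left out an array, the one without p53 mKO 3 (the others at 0.0529 to 0.145). Of the 4 Ddb2 probes, which differed by -0.18 to -0.03, 1 fell. The mean of the probes differed by -0.08 (limma adjusted p = 0.195).

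Several well known targets were not called on immobilization. Mdm2 read 11.41, 11.67 and 12.21 in immobile control limbs, against 11.38, 11.38 and 11.35 in mobile control limbs. All immobile arrays were higher, but they differed widely among themselves (0.39 ± 0.18, SE; limma adjusted p = 0.221). With array weights Mdm2 passed the threshold, at 0.32 (limma adjusted p = 0.0364). Ccng1 read 13.63, 13.51 and 13.97 in immobile control limbs, against 13.92, 13.93 and 13.96 in mobile control limbs. The groups overlapped through immobile control 3, without which the difference was -0.37 (limma adjusted p = 0.0281), against -0.23 ± 0.12 (SE; limma adjusted p = 0.247) with it. Ccng1 was also called with array weights, at -0.39 (limma adjusted p = 0.00578). Its 3 probes differed by -0.89 to -0.23, none of them called, and on both of the dimmer probes every immobile control array was below every mobile control array. Ppm1d read 9.73, 9.91 and 9.92 in immobile control limbs and 9.69, 9.80 and 9.71 in mobile control limbs, which overlapped (limma adjusted p = 0.498).

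The called members Pml, Plk2 and Dram1 and the uncalled Apaf1 and Gtse1 were each highest, among the immobile control arrays, on replicate 1, the array with the highest macrophage markers. Plk3, Sesn2, Epha2 and Tnfrsf10b, the last lower on immobilization, were also highest there, and Aen tied. The other tested members, among them the called Bbc3, Tob1, Polk and Ddb2, were highest on another array. Without immobile control replicate 1, Pml differed by 0.30 (limma adjusted p = 0.0225), Plk2 by 0.45 (limma adjusted p = 0.0105) and Dram1 by 0.36 (limma adjusted p = 0.0586). Apaf1 read 9.76, 9.19 and 9.37 in immobile control limbs, against 9.07, 9.04 and 9.10 in mobile control limbs. It was not called (0.37 ± 0.13, SE; limma adjusted p = 0.115), and reached a limma adjusted p of 0.0419 without immobile control 2. The other Apaf1 probe differed by 0.01. Gtse1 read 8.96, 8.44 and 8.32 in immobile control limbs, against 8.35, 8.32 and 8.37 in mobile control limbs, which overlapped. Macrophage marker means were 9.97 to 11.12 in immobile control limbs, against 9.59 to 9.70 in mobile control limbs, and all 11 tested macrophage markers were above 0 with a median log2 difference of 0.79. Of these, 10 had an unadjusted p under 0.05 and 1 passed the adjusted threshold. The part of these markers in the members' values was not tested.

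Trp53inp2 was near the threshold and resembled Tob1 in direction. It read 12.07, 11.94 and 12.50 in immobile control limbs, against 12.68, 12.82 and 12.71 in mobile control limbs. The groups did not overlap, with a log2 difference of -0.57 ± 0.17 (SE; limma adjusted p = 0.0685), and the lowest limma adjusted p was 0.0188 when immobile control 3 or p53 mKO 3 was left out in turn. Ddit4l read 13.81, 13.91 and 14.06 in immobile control limbs, against 13.80, 13.56 and 13.50 in mobile control limbs, and was not called (0.31 ± 0.11, SE; limma adjusted p = 0.112). Phlda3 and Rrm2b differed by 0.17 and 0.04, and were not called either. Tnfrsf10b read 8.95, 8.91 and 8.66 in immobile control limbs, against 9.18, 9.31 and 9.19 in mobile control limbs, lower on each array but just short of the threshold (-0.39 ± 0.11, SE; limma adjusted p = 0.0552), which it passed without p53 mKO 1 or 3 (lowest limma adjusted p 0.038). The other tested Tnfrsf10b probe differed by -0.01. Sesn1, at 0.23 (limma adjusted p = 0.202), passed the threshold without immobile control 2, at 0.34 (limma adjusted p = 0.0448). The other Sesn1 probe differed by -0.05. The remaining uncalled members, Mdm4, Trp53inp1, Fas, Ei24, Aen, Eda2r, Zmat3, Plk3, Sesn2, Epha2, Xpc and Ercc5, differed by -0.13 to 0.43, and their groups overlapped except for Sesn2.

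The third question was whether the targets differ between p53 mKO and control mice in immobile muscle, where the level of p53 itself was not examined. With limma, 0 of the 30 tested members were called between immobile p53 mKO and immobile control limbs, as were 0% of the 10842 genes. At an unadjusted p under 0.05 there was 1 member, Ddb2, against 2.94% of all genes. The members' median log2 difference was -0.02, against 0 for all genes, with 10 members above 0 and 20 below. Ddb2 read 9.05, 9.08 and 8.99 in immobile p53 mKO limbs, against 8.84, 8.97 and 8.94 in immobile control limbs, and was higher by 0.12 (95% interval 0.01 to 0.23), with every p53 mKO array above every immobile control array. The 4 Ddb2 probes differed by -0.03 to 0.12, and the brightest, given here, had the highest difference.

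Intervals show what sizes the data leave possible. For Apaf1 the log2 difference was -0.27 (95% interval -0.57 to 0.03), with 9.21, 9.05 and 9.24 in immobile p53 mKO limbs against the values above in immobile control limbs. For Mdm2 it was -0.08 (95% interval -0.50 to 0.34), with 11.60, 11.57 and 11.88 in immobile p53 mKO limbs. The 3 Mdm2 probes differed by -0.30 to 0.02, none of them called. The second Mdm2 probe read 11.35, 11.44 and 11.70 in immobile p53 mKO limbs, against 11.42, 11.66 and 12.31 in immobile control limbs. On that probe each p53 mKO array was below the same-numbered immobile control array. For Bbc3 the log2 difference was -0.04 (95% interval -0.22 to 0.14), for Plk2 -0.09 (-0.24 to 0.06), for Tob1 -0.02 (-0.21 to 0.16) and for Ccng1 0.03 (-0.23 to 0.30). Differences of the size seen with immobilization in Tob1, Plk2 and Bbc3 lie outside these intervals, while for Mdm2 and Apaf1 the intervals are wide. Same-numbered arrays of these groups deviated together, and 2 of the 30 members, each by its brightest probe, were lower in p53 mKO in all 3 pairs. Apaf1 differed within pairs by -0.55, -0.14 and -0.13, and Pml by -0.25, -0.04 and -0.02. The other Apaf1 probe read 8.52, 8.59 and 8.43 in immobile p53 mKO limbs, against 8.71, 8.58 and 8.36 in immobile control limbs. It was lower in p53 mKO in pair 1 only, with a difference of -0.04 between the groups. By its brightest probe, Ddb2 was the 1 member higher in all 3 pairs, by 0.21, 0.11 and 0.05. How many of all genes kept 1 direction in all 3 pairs was not computed, so these counts show nothing particular to the members. A fit with the replicate number as a block also covered the mobile control arrays, whose numbers did not pair with those of the immobile groups. In that blocked fit, the 95% intervals were -0.53 to -0.01 for Apaf1, -0.26 to 0.05 for Pml, -0.0029 to 0.25 for Ddb2 and -0.44 to 0.28 for Mdm2, and 0 members were called. Apaf1, in place of Ddb2, was then the 1 member with an unadjusted p under 0.05. The direction for Mdm2 turned without immobile control 3 (0.14), that for Ccng1 turned without immobile control 1 (-0.0033), immobile control 2 (-0.06) or p53 mKO 3 (-0.04), and the members' median was 0.02 without immobile control 3.

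Immobile p53 mKO limbs were also set against mobile control limbs, a comparison that shares its mobile arrays with the one above. Here 2 of 30 members rose, where 4.47% of genes rose, and 2 fell, where 5.28% of genes fell. The counts moved to 4 risen without immobile control 1, to 4 fallen without immobile control 3, and to 1 fallen without mobile control 1 or 3, immobile control 2 or p53 mKO 2. Macrophage markers moved here too, with means of 10.02 to 10.52 in immobile p53 mKO limbs, against 9.59 to 9.70 in mobile control limbs. All 11 were above 0, with a median log2 difference of 0.82 and 2 risen, and their part in the members' values was not tested. Tob1 read 11.40, 11.41 and 11.45 in immobile p53 mKO limbs and was -0.69 ± 0.08 (SE; limma adjusted p = 0.0021) from mobile control limbs. Bbc3 read 9.14, 9.27 and 9.18, with a difference of 0.47 ± 0.08 (SE; limma adjusted p = 0.00961), and of 0.19 (limma adjusted p = 0.0234) for the mean of its probes. Plk2 read 9.59, 9.70 and 9.61, with a difference of 0.39 ± 0.06 (SE; limma adjusted p = 0.01). Polk, at -0.26 ± 0.06 (SE; limma adjusted p = 0.0332), missed the threshold without mobile control 1 or 3, immobile control 2, or p53 mKO 2 or 3 (limma adjusted p 0.0526 to 0.106). Dram1 and Pml, at 0.36 and 0.28, had limma adjusted p of 0.0507 and 0.062, so that a call in one comparison and none in the other is no difference between genotypes.

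The plasmid and immobilization comparisons share no arrays, and their members can be set side by side. Of the 28 members tested in both, 6 of the 7 immobilization calls (85.7%) were called in the same direction with the plasmid, which is 6 of the 22 plasmid calls (27.3%). These were Plk2, Bbc3, Pml, Dram1, Tob1 and Ddb2, and 0 members were called in opposite directions. Over all 10059 genes tested in both, 71.0% of the immobilization calls and 14.9% of the plasmid calls were shared in the same direction. Of the 1240 immobilization calls among these genes, 102 were called in the opposite direction with the plasmid.

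Whether the plasmid and immobilization responses differ was tested gene by gene, as the plasmid difference minus the immobilization difference in 1 fit of all arrays. It was higher in 4 of 32 tested members, where 12.4% of 11432 genes were higher, and lower in 5, where 11% of genes were lower. Ddit4l had the largest gap, -1.22 with the plasmid and 0.31 with immobilization (difference -1.53 ± 0.17, SE; limma adjusted p = 0.000107). Phlda3 followed, -1.12 with the plasmid and 0.17 with immobilization (difference -1.29 ± 0.19, SE; limma adjusted p = 0.000455). Rrm2b was lower by 0.60 with the plasmid and differed by 0.04 with immobilization (difference -0.64 ± 0.12, SE; limma adjusted p = 0.00181).

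Plk3, Gtse1 and Epha2 were members whose plasmid difference was the higher one. Plk3 differed by 0.71 with the plasmid and 0.07 with immobilization (difference 0.64 ± 0.10, SE; limma adjusted p = 0.000745). Gtse1 differed by 0.88 with the plasmid and 0.23 with immobilization (difference 0.65 ± 0.16, SE; limma adjusted p = 0.0115), which grew to 1.07 but was not called when background was subtracted (limma adjusted p = 0.0736), and Epha2 by 0.28 and -0.02 (difference 0.30 ± 0.05, SE; limma adjusted p = 0.00156). Plk2, which rose in both, did not pass this test (difference 0.27, 95% interval 0.01 to 0.53; limma adjusted p = 0.127). The remaining calls were weaker. Bbc3 (limma adjusted p = 0.0469) lost its call in 14 of 17 fits that left out an array, Polk (0.0349) in 9, and Ccng1 (0.0288) in 5, those without any 1 mobile control array, immobile control 3 or control plasmid 1. The 3 Ccng1 probes differed by -0.52 to -0.01 in this test, and 1 passed it. Apaf1 was not called (0.31), but passed without immobile control 1, at 0.47 (limma adjusted p = 0.00131). The count of members lower was 3 without mobile control 1 or control plasmid 1, and 9 without immobile control 1.

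Other genes of the pathway were described by lists. Of 19 tested further p53 targets, 9 rose and 5 fell with the plasmid, with a median log2 difference of 0.12, and of 22 tested upstream regulators and cofactors of p53, 2 rose and 7 fell, where 30.2% of all genes rose and 28.6% fell. Cdkn1a, which encodes the cell cycle inhibitor p21, read 12.40, 12.66, 12.45 and 12.34 in p53 plasmid muscles, against 11.13, 11.66, 11.09 and 11.89 in control plasmid muscles, a rise of 1.02 ± 0.18 (SE; limma adjusted p = 0.00143). Gadd45a, a growth arrest gene, read 10.66, 10.62, 10.98 and 10.39 in p53 plasmid muscles, against 11.30, 11.73, 11.28 and 13.16 in control plasmid muscles. It was lower on every p53 plasmid array (limma adjusted p = 0.029), with a log2 difference of -0.77 (limma adjusted p = 0.00471) without control plasmid 4, and it missed the threshold without control plasmid 2 or p53 plasmid 1, 2 or 4 (limma adjusted p 0.0522 to 0.0699), with no filter (limma adjusted p = 0.0503) and with the replicate block (limma adjusted p = 0.0557).

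The further targets with the smallest adjusted p with the plasmid were Ccnd1, cyclin D1, and Casp8, an initiator caspase. Ccnd1 read 13.20, 13.50, 12.95 and 13.14 in p53 plasmid muscles, against 11.60, 11.55, 11.57 and 11.32 in control plasmid muscles, and was 3.22-fold higher (limma adjusted p = 1.7e-05). Casp8 rose by 0.96 ± 0.06 (SE; limma adjusted p = 1.6e-05), and Bid, a substrate of caspases in apoptosis, by 0.68 ± 0.06 (SE; limma adjusted p = 3.8e-05). Among upstream genes, the stress kinase Mapk8 read 9.23, 9.16, 9.25 and 9.20 in p53 plasmid muscles, against 9.93, 9.99, 9.93 and 10.13 in control plasmid muscles, and was 1.72-fold lower (limma adjusted p = 1.3e-05). 

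With immobilization, 3 of the 19 further targets rose and 2 fell, and 3 of the 22 upstream genes rose, where 5.1% of all genes rose and 6.36% fell the 3 being Nmt1, Rpl5 and the p53 relative Trp63. Cd82, a tetraspanin, rose by 1.39 ± 0.12 (SE; limma adjusted p = 0.000566) and Tigar, a phosphatase of the glycolytic pathway, fell (-0.90 ± 0.14, SE; limma adjusted p = 0.00625). The other targets called were Gadd45a, Cdkn1a and Sod2, the last being lower (-0.42 ± 0.06, SE; limma adjusted p = 0.00348). Cdkn1a read 11.54, 11.37 and 11.99 in immobile control limbs, against 10.13, 9.96 and 10.25 in mobile control limbs. Between immobile p53 mKO and immobile control limbs, 0 of these 41 genes were called. Cdkn1a read 10.85, 11.25 and 11.16 in immobile p53 mKO limbs, below all immobile control arrays (-0.55, 95% interval -0.94 to -0.15), and was the only further target or upstream gene with an unadjusted p under 0.05.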

How the data were processed

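RNA from 17 tibialis anterior muscles, extracted with TRIzol, purified on columns with DNase and labelled as biotin cRNA per the labels' protocols, was measured on Illumina bead arrays. The deposited values are log2 intensities, already normalized by the authors; the log base is unstated and was taken as log2, and the normalization method and probe filters are not given in the sources used here. Of 25697 probes, 23978 had 1 gene symbol, 0 several and 1719 none, and 99.9% of named probes matched RefSeq by gene ID. Each gene was represented by its brightest probe, and entered a test if its value passed its array's 40th percentile (8.4 to 8.41) on a number of arrays no lower than the smallest group. Comparisons used limma 3.58.1 (lmFit and eBayes, R 4.3.3) with Benjamini-Hochberg adjustment over all genes tested, at 0.05: the 9 immobilization arrays in 1 fit, the 8 transfection arrays in another, and all 17 for the difference of responses. Python 3.11.15, pandas 2.3.3 and matplotlib 3.10.9 made tables and figures, and the fits were tested on simulated data.

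Members and lists were chosen with earlier results of these data known, and brightness classes, promoter search and counts of shared calls were added after the values were seen. Values on every array are given for up to 12 called members with the smallest adjusted p, the 3 with the largest differences per comparison and the main feedback genes; other members with such values were chosen after theirs were seen. Same-numbered arrays deviated together between immobile p53 mKO and immobile control limbs (correlations 0.484 to 0.813), but the labels do not say that the numbers pair arrays. The main fit did not pair them. The blocked fit, which also covered the mobile control arrays, likewise called 0 genes and 0 members between these groups. A paired fit of the immobile arrays alone was not run. Alternatives were no filter, repeated quantile normalization, background subtraction (each array's lowest value, with 50 added), array weights, the mean of all probes, the replicate block and each array left out.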

Additional observations from a re-analysis of the deposited data

Results flagged for a closer look

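In groups of 4 arrays, a value was singled out when its gap to the nearest other array, divided by the group's range, passed Dixon's critical value. Of 58 groups examined, 4 held such a value, and chance gives about 1 in 20, or 2.9 of 58. Ccng1 read 12.66 on p53 plasmid 2, against 13.01 to 13.08 on the other p53 plasmid arrays. Trp53inp2 read 10.42 on the same array, against 11.06 to 11.14 on the others. That array also had the lowest mean of muscle fibre markers of its group, at 14.65. Both genes were still called without it. Pmaip1 read 8.69 on p53 plasmid 3, against 8.62 to 8.63 on the others of its group. Ercc5 read 9.99 on control plasmid 1, against 9.79 to 9.81 on the others of its group.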

How the results depend on the processing

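With each array left out in turn, 19 of the 23 member calls between p53 plasmid and control plasmid muscles held, as did 3 of 7 between immobile and mobile control limbs, 3 of 4 between immobile p53 mKO and mobile control limbs, and 6 of 9 between the responses. Under the other settings 20, 5, 4 and 6 of these calls held, the losses being Ppm1d, Sesn2 and Zmat3 in the first, Ddb2 and Pml in the second, and Bbc3, Ccng1 and Gtse1 in the last. The cause was not tested for any change below.

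Between immobile and mobile control limbs, array weights gave 1449 genes risen and 1348 fallen, with 8 and 7 members, and background subtraction moved the members' median to 0.15. Leaving out an array gave 235 to 679 genes risen and 385 to 729 fallen, 2 to 5 members risen and 1 to 5 fallen. Between immobile p53 mKO and immobile control limbs, genes with an unadjusted p under 0.05 numbered 557 with no filter, 933 with array weights and 245 to 667 with an array left out. Such members numbered 0 with the mean of all probes and 0 to 3 with an array left out, when the members' median ran from -0.046 to 0.018. With an array left out, the direction turned for Ccng1 (-0.063 to 0.17; below 0 without immobile control 1, immobile control 2 or p53 mKO 3), and, without immobile control 3, for Gadd45a (-0.48 to 0.06) and Mdm2 (-0.26 to 0.14).

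Between immobile p53 mKO and mobile control limbs, array weights gave 1138 genes risen and 1066 fallen, with 5 and 4 members. Background subtraction gave 4 members risen and a median of 0.15. Leaving out an array gave 157 to 874 genes risen, 290 to 685 fallen, 2 to 4 members risen and 1 to 4 fallen. The replicate block gave 4 members risen and 4 fallen, but same-numbered arrays did not pair there (correlations -0.133 to 0.177), nor between immobile and mobile control limbs (0.07 to 0.181) or the plasmids (-0.001 to 0.242). Between p53 plasmid and control plasmid muscles, the members' median was -0.10 with background subtraction, and leaving out an array left 10 to 12 members risen and 9 to 11 fallen. Between the plasmid and immobilization responses, quantile normalization gave 3 members lower, background subtraction a median of -0.13, the mean of all probes 7 members higher and the replicate block 9 lower. Array weights gave 2388 genes higher and 1975 lower, with 9 and 11 members, and leaving out an array gave 3 to 6 members higher and 3 to 9 lower.

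Limits are the small groups, values close to the floor for dim members, several probes that disagree, and a response that a bulk sample does not assign to a cell type. Which arrays share a mouse and the level of Trp53 itself were not analysed here. Among the other values recomputed under these settings, apart from arrays left out, 477 stayed the same, 22 no longer passed the threshold and 4 newly did. For a gene's difference, staying the same meant keeping its direction and side of the threshold. For a count or a median, it meant a value near that of the main fit. Losses not named above include Gadd45a with the plasmid, with no filter (limma adjusted p = 0.0503) and with the block (0.0557), and Cdkn1a between immobile p53 mKO and mobile control limbs with the mean of its probes (0.0587). The gains were Mdm2 and Ccng1 on immobilization and Mdm2 with the plasmid under array weights, and Mdm2 with the plasmid for the mean of its probes.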

Other observations

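The 3 Ccng1 probes did not move together across the immobile limbs, an observation made after the values were seen. The brightest probe read 13.65, 13.67 and 13.89 in immobile p53 mKO limbs, 13.63, 13.51 and 13.97 in immobile control limbs, and 13.92, 13.93 and 13.96 in mobile control limbs. The second probe read 12.18, 12.26 and 10.77 in immobile p53 mKO limbs, 11.96, 12.38 and 10.85 in immobile control limbs, and 12.79, 12.52 and 12.56 in mobile control limbs. The third probe read 11.13, 11.38 and 10.13 in immobile p53 mKO limbs, 10.82, 11.05 and 10.02 in immobile control limbs, and 11.50, 11.42 and 11.44 in mobile control limbs. Replicate 3 of both immobile groups was thus the highest of its group on the brightest probe and the lowest on the other two.

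Tigar, a phosphatase that lowers glycolytic flux, was lower in all 3 comparisons with a mobile or control plasmid group. Its log2 difference was -0.80 ± 0.08 in p53 plasmid against control plasmid muscles (SE; limma adjusted p = 5.8e-05), -0.90 ± 0.14 in immobile against mobile control limbs (SE; limma adjusted p = 0.00625) and -0.70 ± 0.14 in immobile p53 mKO against mobile control limbs (SE; limma adjusted p = 0.0193). The last pair of comparisons shares its mobile arrays. Gadd45a was above 0 on immobilization and below 0 with the plasmid, with 2.52 ± 0.26 in immobile against mobile control limbs (SE; limma adjusted p = 0.0012) and -1.21 ± 0.40 in p53 plasmid against control plasmid muscles (SE; limma adjusted p = 0.029). The plasmid value was -0.77 without control plasmid 4, and missed the threshold with no filter (limma adjusted p = 0.0503) and with the replicate block (limma adjusted p = 0.0557). The difference of the responses was -3.73 ± 0.53 (SE; limma adjusted p = 0.000431).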
